A study of Mus musculus with 9 samples.

Results

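Krüppel-like factors (Klf) are transcription factors with C2H2 zinc fingers that bind GC-rich and CACCC-type DNA, and members of the family act as activators or repressors depending on the cofactors they recruit. In endothelium, *Klf2* and *Klf4* are known as genes induced by laminar flow through the Mekk3, Mek5 and Erk5 kinases and Mef2 factors, and both are held down by the cerebral cavernous malformation (CCM) complex in mice. *Klf5* is best known in the lung as a factor of epithelial maturation, and *Klf10* and *Klf11* as early genes of TGF-beta signalling. The transcripts of 9 Klf genes (*Klf2*, *Klf3*, *Klf4*, *Klf5*, *Klf6*, *Klf7*, *Klf10*, *Klf11* and *Klf13*) were followed in fetal mouse pulmonary lymphatic endothelial cells (PLECs) through the last days before birth. They were found by their Entrez Gene numbers among the 25206 genes on the arrays, and all 9 were present.

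Lungs of untreated C57BL/6N embryos were digested at 3 embryonic days, E16.5, E17.5 or E18.5, and PLECs were sorted as the fraction carrying CD31, Vegfr3, Lyve1 and Pdpn and lacking CD45 and Epcam. Every day was represented by 3 samples, each made of the lungs of 2 litters and measured on 1 Mouse Gene 2.0 ST array, so p-values measure the spread between such pools. In these bulk samples, fewer cells of a type and less RNA per cell cannot be told apart. Values are log2 array intensities, on which a difference of 1 is a 2-fold difference; they compare samples for one gene and do not rank genes against each other. The medians of the 9 arrays lay between 3.79 and 3.91, and a gene was tested if it lay above the array median on at least 1 array, which 14096 genes did. All 9 Klf genes lay above the median on all 9 arrays.

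Of the markers fixed to check the sorts, 6 lymphatic markers were found on the arrays. Their mean was lowest, at 6.61, in E17.5 replicate 2 and reached 7.78 in the highest sample. Of the 6, only *Pdpn* passed the test below between E16.5 and E18.5, against 9.98% of all tested genes. It was higher by 1.46 (FDR *q* = 0.0149, limma), and 3 of 6 fits that left out a sample lost the call. *Flt4* and *Lyve1* changed by -0.04 and 0.03. Markers of lung epithelium, which the sort gated out, were not constant. The mean of 6 alveolar type I markers lay between 4.84 and 5.27 at E16.5, between 4.93 and 5.59 at E17.5 and between 6.63 and 6.98 at E18.5. Between E17.5 and E18.5, 5 of the 6 passed the test below as higher at E18.5, against 1.89% of all tested genes passing in either direction. The arrays also differed within a day, and E18.5 replicate 2 held the lowest value of 18.9% of all tested genes, the largest share of the 9 samples. The part of these differences in the Klf values below was not tested.

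The promoters of *Klf2*, *Klf4* and *Klf13* are shown, chosen after their values were seen. *Klf2* and *Klf4* had a sample far from the others in its day, and in *Klf13* E16.5 overlapped neither later day. *Klf10* also had such a sample, and *Klf5* and *Klf6* also had 2 days that did not overlap. These genes are not shown, *Klf5* and *Klf10* for want of a promoter window. Promoter windows of 300 bases (250 before to 50 after the transcription start) were taken from RefSeq on GRCm38.p6, where 7 of the 9 genes had one. Capitals mark the GC box (GGGCGG) and the GT box (CACCC), both searched on both strands. The first window is chr8:72318812-72319111 on the plus strand, the second chr4:55532426-55532725 on the minus strand and the third chr7:63938866-63939165 on the minus strand, each written along its gene.
Klf2: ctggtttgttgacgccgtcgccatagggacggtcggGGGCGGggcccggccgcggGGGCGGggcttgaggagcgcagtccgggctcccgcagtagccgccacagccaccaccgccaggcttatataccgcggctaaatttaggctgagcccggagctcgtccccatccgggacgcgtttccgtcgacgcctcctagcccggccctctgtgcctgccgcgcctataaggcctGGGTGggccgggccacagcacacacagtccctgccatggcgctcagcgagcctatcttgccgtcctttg
Klf4: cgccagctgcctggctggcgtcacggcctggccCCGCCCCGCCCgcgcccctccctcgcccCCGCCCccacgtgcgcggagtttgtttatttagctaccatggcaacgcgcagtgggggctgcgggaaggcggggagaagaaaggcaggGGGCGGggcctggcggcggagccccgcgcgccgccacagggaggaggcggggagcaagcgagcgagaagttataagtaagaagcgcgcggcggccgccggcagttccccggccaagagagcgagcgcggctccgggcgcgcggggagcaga
Klf13: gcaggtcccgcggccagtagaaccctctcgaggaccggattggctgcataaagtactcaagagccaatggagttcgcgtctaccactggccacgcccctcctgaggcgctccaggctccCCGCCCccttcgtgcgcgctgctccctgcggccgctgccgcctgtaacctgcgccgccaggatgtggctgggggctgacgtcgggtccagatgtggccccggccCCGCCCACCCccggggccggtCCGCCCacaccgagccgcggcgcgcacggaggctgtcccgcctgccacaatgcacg

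The 3 windows were rich in G and C, at 69.3% in *Klf2*, 74.3% in *Klf4* and 72.0% in *Klf13*, against a median of 52.7% over the 32851 mouse windows. A GC box was found in all 7 Klf windows and in 35.7% of all mouse windows, and a GT box in 4 of the 7 (*Klf2*, *Klf3*, *Klf7* and *Klf13*) and in 57.5% of all. In the *Klf13* window, 1 GT box and 1 GC box share a base, as do 2 GC boxes in the *Klf4* window. The core of the cyclic AMP response element (TGACG, both strands) was found in *Klf2*, *Klf3*, *Klf4* and *Klf13* and in 20.8% of all windows. A MEF2 element, the site class of the flow-responsive Mef2 factors, was found in *Klf2* only among the 7, as CTAAATTTAG at chr8:72318944-72318953, beginning 118 bases before the start. Such an element stood in 3.19% of all windows. A CArG box, the element of serum response factor, was found in 0 of the 7 and in 1.63% of all windows. These matches describe the letters of the windows and not binding.

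Over the 3 days, 0 of the 9 Klf genes passed the test (FDR *q* under 0.05, moderated F in limma), where 9.09% of all tested genes did. At an unadjusted p under 0.05, 2 of 9 passed (*Klf13* and *Klf5*), against 26.5% of all tested genes. Between E16.5 and E18.5, 0 of 9 passed in limma against 9.98% of all tested genes, and 1 (*Klf13*) at an unadjusted p under 0.05 against 28.1%. Between E16.5 and E17.5, 0 of 9 passed against 0.149% of all tested genes, and between E17.5 and E18.5, 0 of 9 against 1.89%; 1 gene each (*Klf13*, then *Klf5*) had an unadjusted p under 0.05, against 14.7% and 17.6%. Between E16.5 and E18.5 the fitted change was positive for all 9 genes, with a median of 0.38 on the log2 scale, while it was positive for 45.4% of all tested genes, whose median was -0.04. With each array centred on its median, *Klf3* and *Klf6* turned to -0.035 and -0.021.

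**Figure D1:**
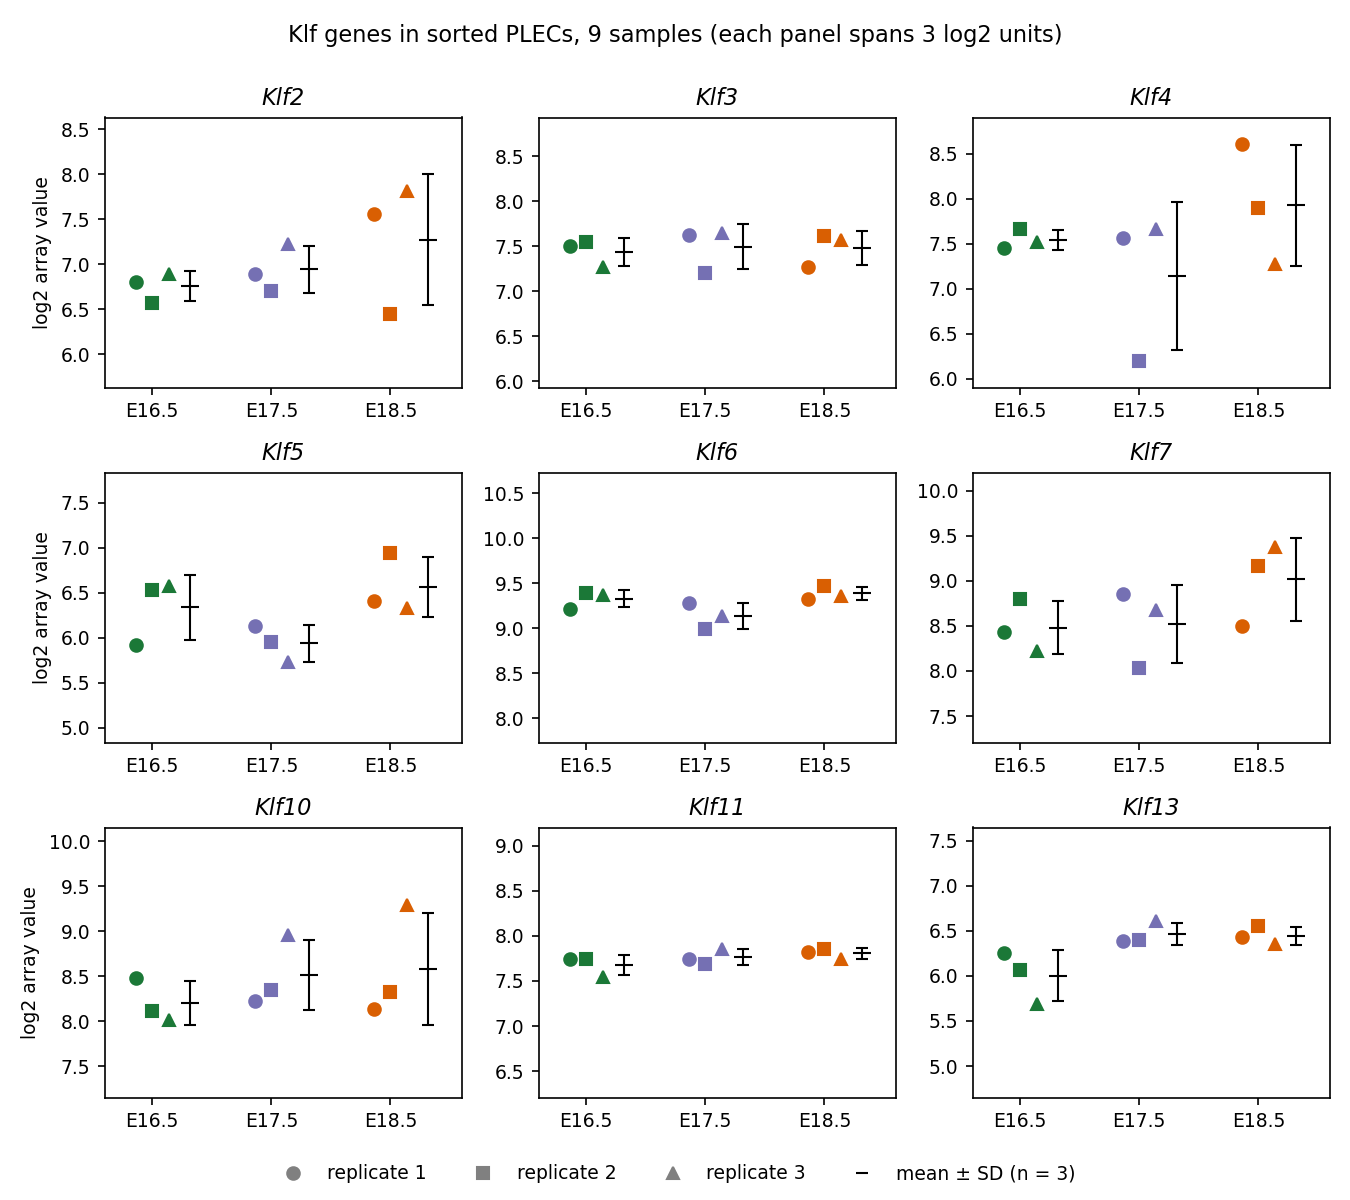
Log2 array values (vertical axes, each spanning 3 log2 units) of the 9 Klf genes by embryonic day; symbols are the replicates, and bars give the mean ± SD of 3 samples. *Klf11* stays within 7.55 to 7.86. Single samples stand far from their day in *Klf2* (6.44 at E18.5), *Klf4* (6.19 at E17.5) and *Klf10* (9.29 at E18.5).

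*Klf2* measured 6.81, 6.57 and 6.89 in the E16.5 samples (replicates 1 to 3), 6.89, 6.71 and 7.23 at E17.5, and 7.56, 6.44 and 7.82 at E18.5. E18.5 replicates 1 and 3 were the highest values of the 9 samples and E18.5 replicate 2 was the lowest, so the days overlapped. Between E16.5 and E18.5 the fitted change was 0.52 on the log2 scale (SE 0.34, 95% CI -0.28 to 1.31, FDR *q* = 0.353, limma), which corresponds to a fold between 0.823 and 2.48. Without E18.5 replicate 2 the change was 0.93 and *Klf2* passed (FDR *q* = 0.0342, limma), as it did over the 3 days (*q* = 0.0401). Without any one of the other 5 samples of these days it lay between 0.24 and 0.58, with *q* from 0.444 to 0.665. The call on *Klf2* thus turns on 1 array, the one that also held the largest share of lowest values over all genes; the part of what sets that array apart in the *Klf2* value was not tested.

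*Klf4*, the other flow-induced member, measured 7.45, 7.67 and 7.52 at E16.5, 7.56, 6.19 and 7.66 at E17.5, and 8.61, 7.89 and 7.27 at E18.5. E17.5 replicate 2 lay more than 1 log2 unit below each of the other 8 samples, E18.5 replicate 1 was the highest, and E18.5 replicate 3 lay below every E16.5 sample. *Klf4* had the widest spread within days of the 9 genes (SD 0.615), wider than that of 98.3% of all tested genes. Its change was -0.41 from E16.5 to E17.5 (95% CI -1.31 to 0.49, *q* = 0.669, limma) and 0.79 from E17.5 to E18.5 (95% CI -0.11 to 1.69, *q* = 0.345). Without E17.5 replicate 2 the first turned to 0.07 and the second was 0.31. Between E16.5 and E18.5 it changed by a fitted 0.38 (95% CI -0.35 to 1.11, *q* = 0.448), and it was 0.04 without E18.5 replicate 1.

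Both samples at the ends of the *Klf4* range also stood apart in cell type markers. E17.5 replicate 2 was the lowest of the 9 samples for 4 of 9 Klf genes (*Klf3*, *Klf4*, *Klf6* and *Klf7*) and for 3 of 6 lymphatic markers, against 12.4% of all tested genes. *Prox1*, the defining factor of lymphatic endothelium, measured 4.11 there and between 5.02 and 5.89 elsewhere. The sort markers on that list were not lowest there. *Flt4*, the gene of Vegfr3, measured 8.60 (7.90 to 8.62 elsewhere), *Lyve1* 10.58 (10.35 to 11.28) and *Pdpn* 6.03 (5.46 to 7.69). E18.5 replicate 1 was the highest sample for 5 of 5 platelet markers, 3 of 4 leukocyte markers, 5 of 7 alveolar type II markers and 4 of 6 fibroblast markers, against 12.4% of all tested genes. The mean of the platelet markers was 8.42 there and between 5.91 and 7.64 elsewhere. The part of these cell types in the *Klf4* values was not tested.

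Immediate early genes, which cells transcribe within minutes of a stimulus, tissue digestion included, were low in the sample where *Klf4* was lowest, but were not high only where it was highest. Of 23 such genes, 11 had their lowest value of the 9 samples in E17.5 replicate 2 (47.8%, against 12.4% of all tested genes). Their mean level was 7.78 there and between 8.15 and 9.05 in the other 8 samples. E18.5 replicate 1, the highest sample of *Klf4*, was the highest for 11 of 23 (47.8%, against 12.4%). The mean was highest, at 9.05, in E18.5 replicate 3, which was the highest for 9 of 23 (39.1%, against 13.3%) although *Klf4* had its second lowest value there, 7.27. The AP-1 gene *Fosb* measured 7.29 in E17.5 replicate 2 and 10.23 in E18.5 replicate 1, the same lowest and highest samples as *Klf4*. *Nr4a1*, an orphan nuclear receptor gene, showed the same pair of extremes at 8.68 and 10.89. From E16.5 to E18.5, all 23 fitted changes were positive (45.4% of all tested genes) and 4 of 23 passed (9.98% of all tested genes), namely *Zfp36*, *Ier5*, *Socs3* and *Dusp1*. *Zfp36*, which encodes an mRNA decay factor, rose by 1.45 on the log2 scale (*q* = 0.00598, limma). *Ier5* rose by 1.00 (*q* = 0.0112), and these 2 also passed without any one of the 6 samples. *Socs3*, a feedback inhibitor of cytokine signalling, rose by 1.07 (*q* = 0.0228) and *Dusp1*, a MAP kinase phosphatase, by 0.67 (*q* = 0.0452); leaving out 1 of the 6 samples lost the call in 4 and 5 of 6 fits. The part of a response shared with these genes in the *Klf4* values was not tested.

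**Figure D2:**
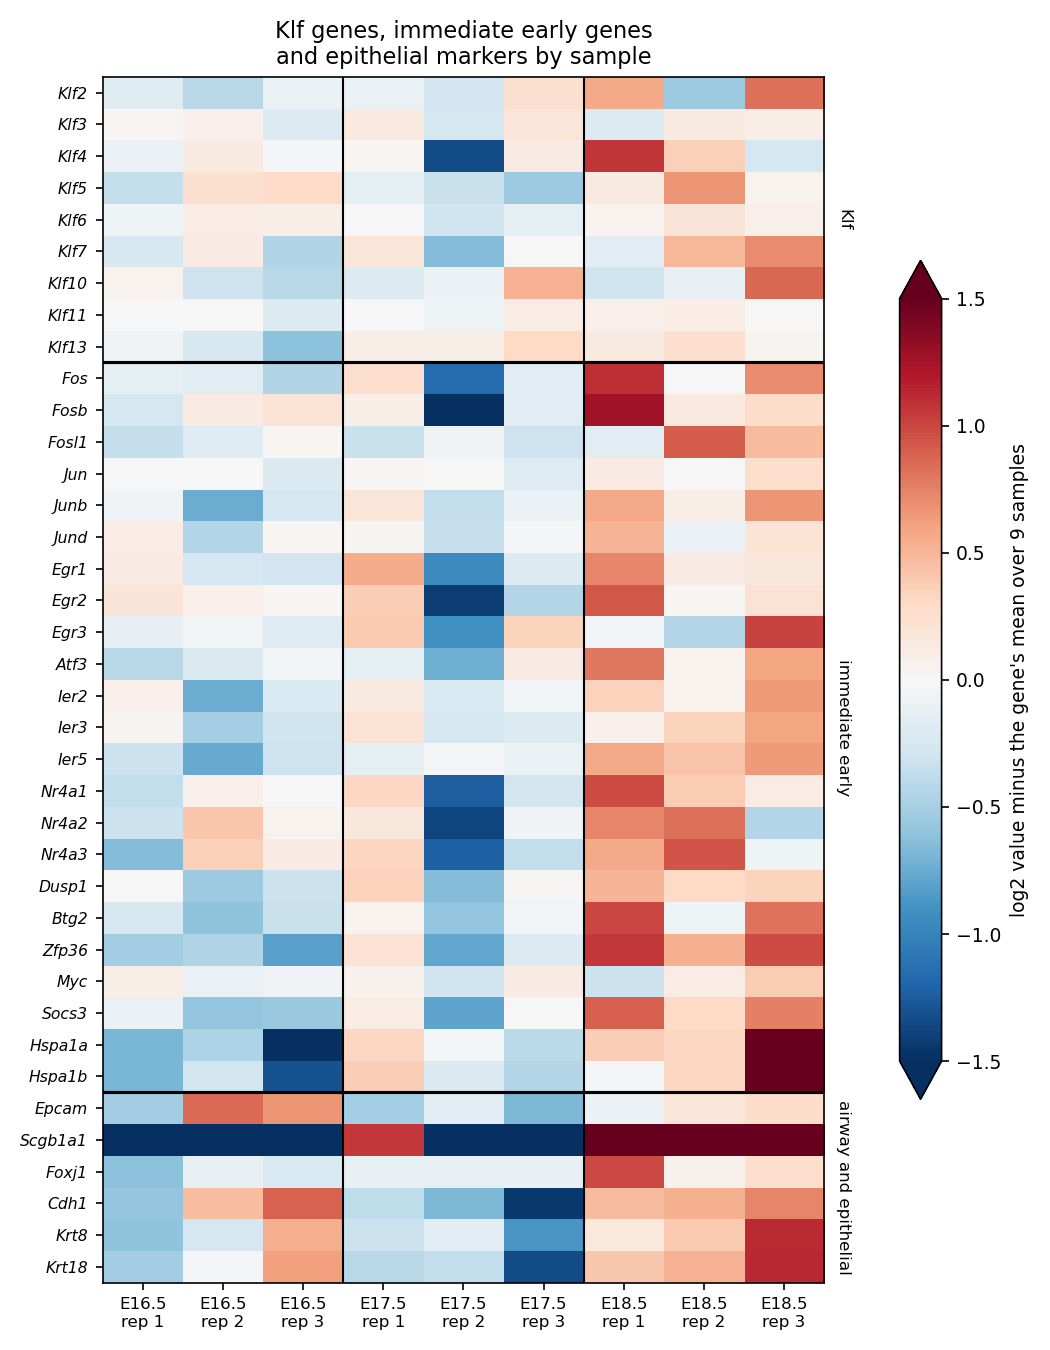
Log2 value minus the gene's mean over the 9 samples (colour scale, cut at 1.5 either way) for the 9 Klf genes, 23 immediate early genes and 6 airway and epithelial markers (rows) in the 9 samples (columns). *Klf4* shares its low E17.5 replicate 2 with *Fosb*, *Egr2* and *Nr4a1*, and *Klf5* shares its low E17.5 replicate 3 with *Cdh1* and *Krt18*.

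*Klf13*, a repressor that recruits Sin3a and an activator of *Ccl5* in T lymphocytes, came closest to the threshold over the 3 days. It measured 6.25, 6.07 and 5.69 at E16.5, 6.39, 6.40 and 6.61 at E17.5, and 6.44, 6.55 and 6.35 at E18.5. The E16.5 samples lay below all samples of both later days, which overlapped each other. *Klf13* was the 1 of 9 Klf genes with no overlap between E16.5 and E17.5, against 20.1% of all tested genes, and the 1 of 9 between E16.5 and E18.5, against 30.2%. *Klf13* changed by a fitted 0.46 from E16.5 to E17.5 (SE 0.15, 95% CI 0.12 to 0.80, *q* = 0.220, limma) and by -0.02 from E17.5 to E18.5 (95% CI -0.35 to 0.32, *q* = 0.967). The E18.5 to E16.5 difference was 0.44 (95% CI 0.06 to 0.82, *q* = 0.130, limma), and the test over the 3 days gave *q* = 0.116. E16.5 replicate 3 was the lowest sample, and without it the 2 differences from E16.5 were 0.30 and 0.29.

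*Klf5* measured 5.92, 6.53 and 6.57 at E16.5, 6.14, 5.95 and 5.73 at E17.5, and 6.41, 6.94 and 6.33 at E18.5. All E17.5 samples lay below all E18.5 samples, and E16.5 replicate 1 lay among the E17.5 samples. The change from E17.5 to E18.5 was 0.62 (SE 0.22, 95% CI 0.14 to 1.11, *q* = 0.174, limma), with *q* from 0.120 to 0.389 when any 1 sample was left out. The later change minus the earlier one was 1.02 (95% CI 0.19 to 1.86, *q* = 0.558, limma); 0% of tested genes passed this test and 8.11% had an unadjusted p under 0.05. *Klf5* was the 1 Klf gene among them.

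*Klf6*, an injury-induced gene that also acts on TGF-beta pathway genes in endothelium, had the same order of days at a smaller size. It measured 9.22, 9.39 and 9.37 at E16.5, 9.28, 8.99 and 9.14 at E17.5, and 9.33, 9.47 and 9.36 at E18.5. The E17.5 samples lay below the E18.5 samples, which made *Klf5* and *Klf6* the 2 of 9 Klf genes with no overlap between these days, against 19.8% of all tested genes. The change was 0.25 (95% CI -0.01 to 0.51, *q* = 0.295, limma). Over the 9 samples *Klf5* and *Klf6* had a Pearson r of 0.86, and 0.70 after the day means were taken out, given as a description of samples that share a sort and an array.

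Epithelial transcripts were in part low in the same samples as *Klf5*, and only some of them were high in its highest sample. E17.5 replicate 3, the lowest sample of *Klf5*, was also the lowest for 5 of the 6 airway and epithelial markers (83.3%, against 6.65% of all tested genes) and for 4 of 7 alveolar type II markers. *Cdh1*, which encodes E-cadherin, measured 5.79, 6.84 and 7.26 at E16.5, 5.99, 5.71 and 4.93 at E17.5, and 6.85, 6.90 and 7.10 at E18.5. Like *Klf5*, it was low in E16.5 replicate 1 and in the 3 E17.5 samples. *Epcam*, the marker used to remove epithelium, was also lowest at E17.5 but highest at E16.5, with day means of 5.56, 4.78 and 5.35. *Scgb1a1*, a club cell gene, lay at 3.92, 4.12 and 3.87 at E16.5 and between 7.40 and 9.06 at E18.5, unlike *Klf5*. E18.5 replicate 2, the highest sample of *Klf5*, was the highest for 0 of 6 airway and epithelial and 0 of 7 alveolar type II markers. It was the highest for 3 of 6 alveolar type I markers (50%, against 10.4% of all tested genes). The mean of these type I markers was also highest there, at 6.98. The part of epithelial RNA in the *Klf5* values was not tested.

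*Klf7*, known for its role in axon growth, measured 8.43, 8.79 and 8.22 at E16.5, 8.85, 8.03 and 8.68 at E17.5, and 8.50, 9.17 and 9.38 at E18.5. Only E18.5 replicates 2 and 3 exceeded every earlier sample. Its change between E16.5 and E18.5 was the largest of the 9 fitted values, at 0.53 (SE 0.25, 95% CI -0.06 to 1.13, *q* = 0.218, limma), and it reached *q* = 0.0819 without E18.5 replicate 1. *Klf3*, a repressor that recruits CtBP, ran parallel to *Klf7* between samples (Pearson r 0.77 over 9 samples, 0.93 after day means were taken out) but not between days. It measured 7.50, 7.55 and 7.26 at E16.5, 7.62, 7.21 and 7.65 at E17.5, and 7.27, 7.61 and 7.57 at E18.5. These days overlapped throughout, and the E18.5 to E16.5 difference was 0.04 (95% CI -0.29 to 0.37, *q* = 0.861, limma).

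The TGF-beta-inducible pair differed in spread. *Klf10* measured 8.48, 8.12 and 8.01 at E16.5, 8.23, 8.35 and 8.96 at E17.5, and 8.13, 8.32 and 9.29 at E18.5. Replicate 3 was the highest sample on both later days, and the other samples of the 3 days overlapped. The difference between E18.5 and E16.5 was 0.38 (95% CI -0.34 to 1.10, *q* = 0.442, limma), and 0.03 without E18.5 replicate 3. *Klf11* measured 7.74, 7.74 and 7.55 at E16.5, 7.74, 7.69 and 7.86 at E17.5, and 7.82, 7.86 and 7.74 at E18.5, with 1 identical value in 4 of the 9 samples. Its difference was 0.13 (95% CI -0.12 to 0.38, *q* = 0.458, limma), so its interval leaves room for a rise of at most 1.30-fold at this precision.

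**Figure D3:**
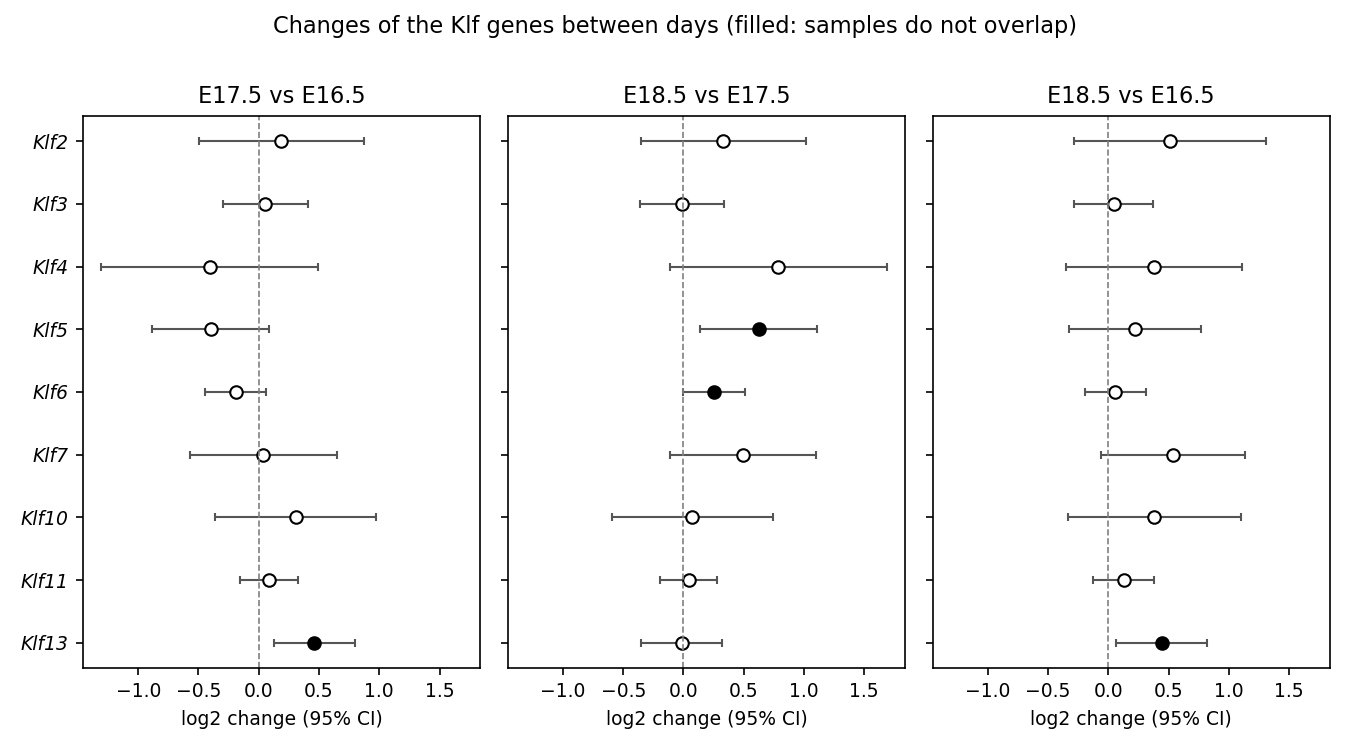
Fitted log2 changes (horizontal axes) of the 9 Klf genes for 3 comparisons of days, with 95% confidence intervals from limma; filled points mark genes whose samples do not overlap between the 2 days. The intervals that exclude 0 belong to *Klf13* (0.12 to 0.80 and 0.06 to 0.82) and *Klf5* (0.14 to 1.11), before adjustment for all tested genes.

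The 9 genes differed widely in how far the replicates of a day scattered. The SD within days was 0.615 for *Klf4*, 0.458 for *Klf2*, 0.446 for *Klf10* and 0.402 for *Klf7*, all wider than in 90% of tested genes, whose median was 0.216. It was 0.307 for *Klf5*, 0.201 for *Klf3* and 0.189 for *Klf13*. *Klf6* (0.110) and *Klf11* (0.0887) lay in the lowest 10% of tested genes. The differences between the highest and lowest day mean ran from 0.06 in *Klf3* to 0.79 in *Klf4*, around a median of 0.32 over all tested genes.

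**Figure D4:**
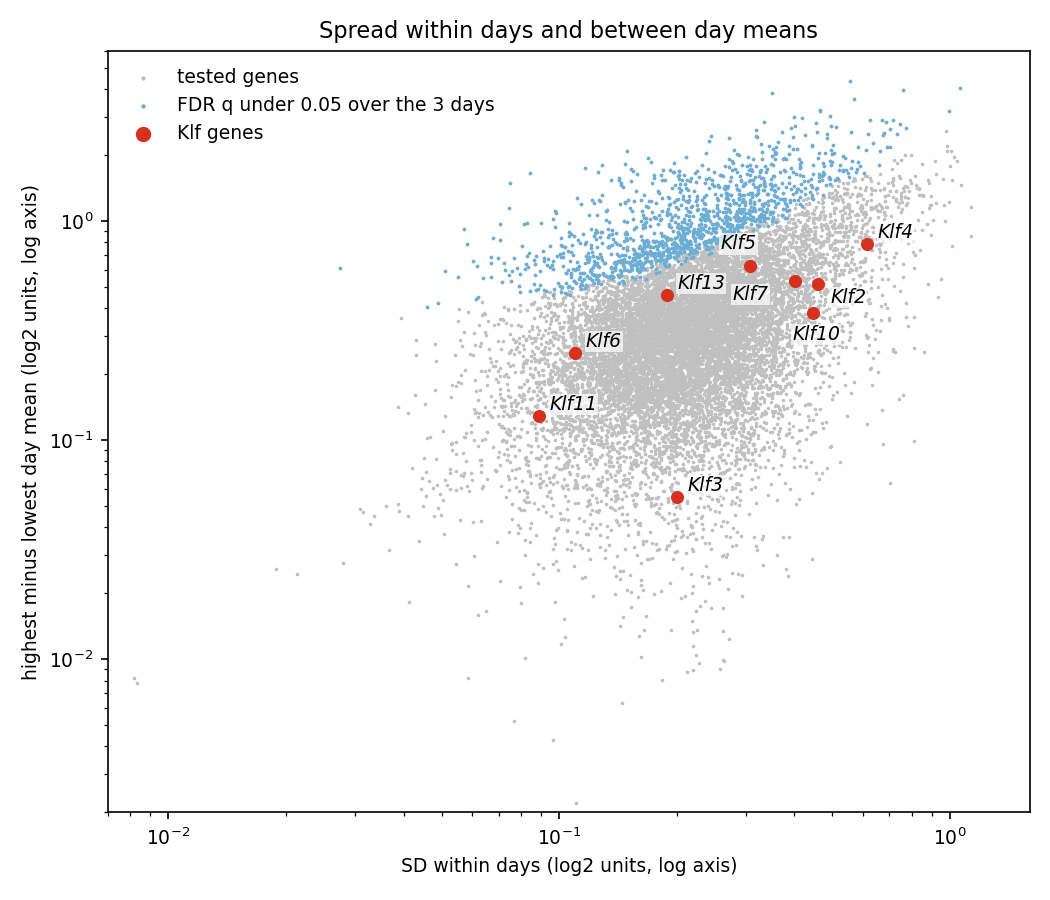
SD within days (horizontal, log axis) against the difference between the highest and lowest day mean (vertical, log axis), both in log2 units, for 13503 tested genes with a symbol; blue points are the 1265 of them with FDR *q* under 0.05 over the 3 days (limma), and red points are the 9 Klf genes. No Klf gene is among the blue points, and *Klf13* has the lowest *q* of the 9 (0.116).

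Each of *Klf2*, *Klf4* and *Klf13* was set beside the tested genes whose values over the 9 samples were most like its own, by Pearson r and as a description only. For *Klf2* these were *H13* (r 0.945), *Neu1* (0.940) and *Esyt1* (0.935). *H13* ran from 7.56 to 7.95, and its 2 highest samples, at 7.84 and 7.95, were E18.5 replicates 1 and 3, as for *Klf2*. For *Klf4* they were *Gata5* (0.954), *Wsb1* (0.950) and *Coch* (0.941). All 3 were lowest in E17.5 replicate 2 and highest in E18.5 replicate 1. *Coch* ran from 2.88 to 3.99 and exceeded the array median in E18.5 replicate 1 only. For *Klf13* the genes most alike were *Ucma* (0.940), *Nell1* (0.939) and 0610025J13Rik (0.939), which covered less than 1 log2 unit each. Sharing high and low samples with a Klf gene follows from picking genes by r. Among the Klf genes themselves, *Klf11* and *Klf13* had the highest r over the 9 samples (0.88); after day means were taken out it was 0.91, below the 0.93 of *Klf3* and *Klf7*.

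Of 8 further Klf genes on the arrays, 6 were tested, *Klf1* and *Klf17* lying below the median on every array, and 0 of 6 passed in any comparison in limma. From 0 to 2 of them per comparison had an unadjusted p under 0.05. Between E16.5 and E18.5 these were *Klf9* and *Klf12*, 2 of 6, against 28.1% of all tested genes. *Klf9*, a gene induced by glucocorticoid and thyroid hormone, measured 6.25, 6.44 and 6.54 at E16.5, 6.70, 6.32 and 5.60 at E17.5, and 7.27, 7.52 and 6.59 at E18.5. All E18.5 samples exceeded all E16.5 samples, by 0.72 on average (95% CI 0.16 to 1.28, *q* = 0.106, limma), and without E18.5 replicate 3 the difference was 0.99 and passed (*q* = 0.0193). *Klf12*, a repressor of *Tfap2a*, measured 4.35, 4.86 and 4.97 at E16.5, 4.90, 4.21 and 4.20 at E17.5, and 5.21, 5.08 and 5.43 at E18.5. Its E18.5 samples lay above all others, by 0.80 over E17.5 (*q* = 0.104) and by 0.51 over E16.5 (*q* = 0.132). Of all tested genes, 30.2% had no overlap between E16.5 and E18.5 and 19.8% had none between E17.5 and E18.5. Of the 9 related Sp genes, 4 were tested and 0 passed in any comparison in limma, with 0 at an unadjusted p under 0.05.

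Upstream of *Klf2* and *Klf4*, 0 of 14 genes of the flow and CCM pathways passed between E16.5 and E18.5 in limma (9.98% of all tested genes), with 3 at an unadjusted p under 0.05 (28.1% of all) and a median change of -0.02. *Mapk7*, which encodes Erk5, differed by -0.34 (*q* = 0.117, limma). Its E18.5 samples lay below its E16.5 samples, as did those of *Hdac7*, while those of *Heg1* and *Hdac5* lay above. Of all tested genes, 30.2% had no overlap between these days. *Heg1*, the endothelial receptor that anchors the CCM complex, differed by 0.39 (*q* = 0.0636). *Hdac5*, a repressor of Mef2 factors, differed by 0.63 (*q* = 0.0716), and it passed when all 9 arrays entered the fit (*q* = 0.0316) or when E18.5 replicate 3 was left out (*q* = 0.0485).

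Of 10 tested genes that *Klf2* or *Klf4* are known to raise in endothelium, 2 passed between E16.5 and E18.5, both higher, against 9.98% of all tested genes, and the median change was 0.31. *Nppc*, which encodes C-type natriuretic peptide, measured 3.79, 3.92 and 4.07 at E16.5 and 4.77, 4.59 and 4.90 at E18.5. It rose by 0.83 (*q* = 0.0127, limma), from a level close to the array median, and lost the call without E16.5 replicate 2 (*q* = 0.0521). *Adamts4*, a metalloproteinase gene, measured 6.52, 6.57 and 6.70 at E16.5 and 7.47, 8.21 and 8.35 at E18.5. It rose by 1.41 (*q* = 0.0143), and the call was lost in 4 of the 6 fits that left out a sample, with *q* up to 0.0618. E18.5 replicate 2, the lowest sample of *Klf2*, was the lowest for 1 of the 10, against 18.9% of all tested genes. E18.5 replicate 1, where *Klf2* was second highest, was the highest for 1 of the 10, against 12.4%. *Klf4* had its second lowest value, 7.27, in E18.5 replicate 3. That sample, the highest of *Klf2*, was the highest for 6 of the 10, against 13.3% of all tested genes. Among these were the flow-responsive genes *Nos3*, *Thbd* and *Aqp1*, which did not pass and were picked after their values were seen. *Nos3*, the endothelial nitric oxide synthase gene, measured 7.39, 7.24 and 8.12 in the E18.5 samples. The mean of 5 blood capillary markers was also highest in E18.5 replicate 3, at 9.28 against 8.25 to 9.02 in the other 8 samples. The markers were not uniform: 2 of the 5 had their highest value there and 1 had its lowest. From E16.5 to E18.5, 2 of the 5 passed, against 9.98% of all tested genes. *Car4* was higher by 3.62 (*q* = 0.00347, limma) and *Plvap* changed by -0.76 (*q* = 0.0402). Leaving out 1 of the 6 samples kept the call in 6 of 6 fits for *Car4* and in 1 of 6 for *Plvap*. The part of blood capillary RNA in these values was not tested.

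Of 11 genes of the TGF-beta list, 2 passed between E16.5 and E18.5, both higher at E18.5, against 9.98% of all tested genes passing. These were the feedback inhibitors *Smad7* (0.74, *q* = 0.0311) and *Skil* (0.72, *q* = 0.0388), each called in 1 of 6 fits that left out a sample. *Smad7* is a known target of repression by *Klf10*.

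Of 12 genes for Klf cofactors and ubiquitin ligases, 1 passed between E16.5 and E18.5, a share close to the 9.98% of all tested genes. *Hdac2*, a histone deacetylase of the Sin3a complex, fell by 0.74 on the log2 scale (*q* = 0.0219, limma), and the call was lost in 4 of 6 fits that left out a sample, with *q* up to 0.0767. The median change of the 12 was -0.19, against -0.04 for all tested genes. *Ctbp1*, the partner of *Klf3* and *Klf12*, differed by -0.41 (*q* = 0.111, limma). Its E18.5 samples lay below its E16.5 samples, as did those of *Ctbp2*, *Sin3a* and *Hdac2*. Of all tested genes, 30.2% had no overlap between these days.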

How the data were processed

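Sorted PLEC RNA was measured on Mouse Gene 2.0 ST arrays. The log2 values, as deposited, were made by the authors with RMA (affy 1.36.1, R 2.15.1, per the labels): background correction, quantile normalization and summary per Entrez Gene. Of 25206 genes, 23740 were named. Arrays give no counts, and their number limits the precision. Tests were run in limma 3.58.1 under R 4.3.3 with eBayes on all genes and Benjamini-Hochberg FDR over the 14096 genes that exceeded the array median at least once. The fit of 3 day means gave the F test and the changes between neighbouring days; for E18.5 against E16.5 only these 6 arrays entered the fit. The fits were first run on simulated data with changes of 2-fold or more planted at E18.5 only. Changes between E16.5 and E17.5, and smaller changes such as those of the Klf genes, were not simulated. Of 170 list members, 167 were matched. The Klf genes and lists were chosen with earlier results of these data known. Genes were picked by rule. These were all 9 Klf genes, sort markers, and of each list up to 4 called members (or else the 2 with the smallest p). For *Klf2*, *Klf4* and *Klf13* the 3 most alike genes were added. Several cell type markers so picked are not described here, among them *Emcn* and *Ptprc*. Other genes named in the text were chosen after their values were seen. The list of genes that *Klf2* or *Klf4* lower is not reported here. Same-numbered replicates were not paired. Alternatives were filters, scalings, array weights, moderation, a block and leaving out samples.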

Additional observations from a re-analysis of the deposited data

How the results depend on the processing

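With 3 pools a day, the intervals of *Klf2*, *Klf4*, *Klf5*, *Klf7* and *Klf10* include changes of over 1 log2 unit in at least 1 comparison of days. Array signal limits the intervals of all genes. The count of Klf genes passing in limma was 0 under every setting except the omission of E18.5 replicate 2, which called *Klf2*; over omitted samples it ran from 0 to 1 between E16.5 and E18.5 and over the 3 days, and from 0 to 0 otherwise. The replicate number shared by samples showed no clear pairing (r from -0.36 to 0.29 over 9 pairs, 2 over 0.1). On both other days, 0 samples were most like their own number. With 3 samples a day, these values cannot decide whether a number marks shared handling, which the labels do not give. With the replicate block, 0 Klf genes passed in each comparison. All tested genes called were then 0 instead of 21 between E16.5 and E17.5, and 146 instead of 267 between E17.5 and E18.5.

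Over all tested genes, the 21 calls between E16.5 and E17.5 became 1 with no filter, 48 with centred arrays, 12 with a second quantile normalization, 5 with an intensity trend, 127 with array weights, and 0 to 34 when a sample was left out. The 267 between E17.5 and E18.5 became 143 with no filter and 6 to 637 with a sample left out. The 1407 between E16.5 and E18.5 became 889 with no filter and 390 to 1210 with a sample left out, and the 1281 over the 3 days became 659 to 1364. Of the 1407, 37.8% were higher at E18.5, against 26.9% of 1828 with centred arrays. The cause of these moves was not tested beyond what each setting changes.

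Directions turned where changes were near 0. With centred arrays *Klf3* and *Klf6* between E16.5 and E18.5 were -0.035 and -0.021, *Klf7* between E16.5 and E17.5 was -0.0069, and *Lyve1* between E16.5 and E18.5 was -0.050. Array weights gave -0.089 for *Klf10* from E17.5 to E18.5. A second quantile normalization gave 0.0032 for *Klf13* from E17.5 to E18.5 and 0.0015 for *Flt4* from E16.5 to E18.5. Leaving out a sample gave, from E16.5 to E17.5, -0.032 to 0.20 for *Klf3*, -0.67 to 0.066 for *Klf4* and -0.13 to 0.28 for *Klf7*. From E17.5 to E18.5 it gave -0.15 to 0.10 for *Klf3*, -0.28 to 0.30 for *Klf10* and -0.070 to 0.055 for *Klf13*. From E16.5 to E18.5 it gave -0.043 to 0.15 for *Klf3*, -0.64 to 0.049 for *Epcam*, -0.12 to 0.10 for *Flt4*, -0.18 to 0.23 for *Lyve1* and -0.14 to 0.021 for *Pecam1*. For the later minus the earlier change it gave -0.13 to 0.56 for *Klf2*, -0.35 to 0.091 for *Klf3*, -0.036 to 0.79 for *Klf7*, -0.59 to 0.21 for *Klf10* and -0.12 to 0.053 for *Klf11*. *Smad7* lost its call with no filter (*q* = 0.0541) and with the block (0.0584), *Skil* with no filter (0.0670), and *Dusp1* with no filter (0.0776), centred arrays (0.0538), a trend (0.0558) and all 9 arrays (0.0888). The cause was not tested.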
